A study of Rattus norvegicus with 20 samples.

Results

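Livers of 3 male rats given 527.1 mg/kg of isodecyl diphenyl phosphate (IDDP) were compared with livers of 5 male rats given the vehicle. The members of each group were chosen by the dose in the sample titles, and the comparison used 8 of the 20 arrays of the series, with 1 array per rat. IDDP is an organophosphate ester added to plastics to soften them and slow their burning. All rats were Harlan Sprague-Dawley, received corn oil by oral gavage on 4 days and were killed on day 5. The 527.1 mg/kg dose equals 1.35 mmol/kg, and vehicle rats received corn oil with no IDDP. Other groups of 3 rats received 66, 132, 263.6 or 1054.2 mg/kg in the same way. The labels state no age. Total RNA of the left liver lobe (100 ng) was hybridised to Affymetrix arrays, and the values are log2 levels per probe set, a set of short probes for 1 transcript.

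The liver clears foreign compounds with oxidising, conjugating and exporting proteins, many of which are induced through the nuclear receptors CAR and PXR or through the antioxidant factor NRF2. Adult hepatocytes rarely divide, and the genes that build the mitotic spindle and drive the G2 to M transition are normally low in resting liver. The liver also has a circadian clock, in which BMAL1 and its partners drive genes such as Dbp and Nr1d1, and the product of Nr1d1 in turn represses Bmal1.

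Across the 31042 probe sets tested, 520 (1.68%) differed between 527.1 mg/kg and vehicle at an adjusted p under 0.05 in limma. Of these, 370 (1.19% of all tested) were higher at 527.1 mg/kg and 150 (0.483%) were lower. The called probe sets stood for 401 genes with 1 symbol, 296 higher and 105 lower, and 97 calls had no single symbol. A change of at least 1.5-fold was seen in 286 of the calls, and 102 changed at least 2-fold, 78 upward and 24 downward. The median change over all tested probe sets was -0.005 on the log2 scale, and the median size of the called changes was 0.61. The 3 treated rats and the 5 vehicle rats did not overlap for 510 of the 520 calls and for 3691 of all tested probe sets. The count of calls was 215 without 527.1 mg/kg replicate 1, 299 without replicate 2, 212 without replicate 3, 285 without vehicle replicate 3 and 302 without vehicle replicate 4. It was 1188 with array weights, 826 with only the 8 arrays compared and 283 with the replicate number as a block.

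The arrays of the 8 rats correlated at Pearson's r between 0.987 and 0.996, and their medians ran from 6.32 to 6.41. Control probe sets near the 3′ end of beta-actin and GAPDH exceed those near the 5′ end by more in degraded RNA. This excess was 1.69 ± 0.10 at 527.1 mg/kg (SD, n = 3) and 1.64 ± 0.27 in vehicle rats (SD, n = 5). The labelled tissue was checked with 11 measured hepatocyte markers, plasma proteins and the urea cycle enzyme Cps1. None of them passed the test, and their changes ran from -0.11 to 0.09. Albumin (Alb) stood at 15.34 in both groups.

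The genes that rose most were a clock output factor, a transporter, an esterase, a glutathione transferase and genes of cell division. Dbp, a transcription factor of the clock output, had levels of 9.22, 8.59 and 9.96 in the 527.1 mg/kg rats and 5.80, 6.34, 5.96, 5.97 and 5.73 in vehicle rats. All treated rats lay above all vehicle rats, whose mean of 5.96 lay below the array median. The rise was 9.80-fold (log2 3.29 ± 0.27 SE, limma adjusted p = 1.06e-06). Abcc3, which exports organic anions and conjugates from hepatocytes, had levels of 9.55, 8.90 and 9.26 at 527.1 mg/kg and 6.38, 6.36, 6.63, 6.83 and 6.72 with vehicle. The groups did not overlap, and Abcc3 rose 6.31-fold (2.66 ± 0.28, adjusted p = 2.31e-05). Ces2c, a carboxylesterase that cleaves ester bonds, had levels of 11.35, 11.57 and 11.24 at 527.1 mg/kg and 8.76, 8.92, 8.75, 8.87 and 8.82 with vehicle. Both groups were tight, and the rise was 5.90-fold (2.56 ± 0.17, adjusted p = 4.72e-08).

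Gsta3, a transferase that joins glutathione to reactive compounds, had levels of 10.65, 10.02 and 9.83 at 527.1 mg/kg and 7.78, 7.97, 8.04, 8.13 and 7.91 with vehicle. The lowest treated rat stood well above the highest vehicle rat, and Gsta3 rose 4.60-fold (2.20 ± 0.17, limma adjusted p = 5.33e-07). Nr1d1, the clock repressor REV-ERB alpha, had levels of 8.99, 8.81 and 9.38 at 527.1 mg/kg and 6.42, 7.72, 6.66, 6.67 and 6.39 with vehicle. Vehicle replicate 2 was the high vehicle rat, and the groups did not overlap. The rise was 4.88-fold (2.29 ± 0.24, adjusted p = 2.57e-05). Cdkn3, a phosphatase that acts on cyclin-dependent kinases, had levels of 9.95, 9.21 and 9.77 at 527.1 mg/kg and 6.59, 6.77, 6.70, 7.17 and 8.11 with vehicle. Vehicle replicate 5 was the high vehicle rat, and Cdkn3 rose 5.97-fold (2.58 ± 0.39, adjusted p = 0.00158).

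**Figure D1:**
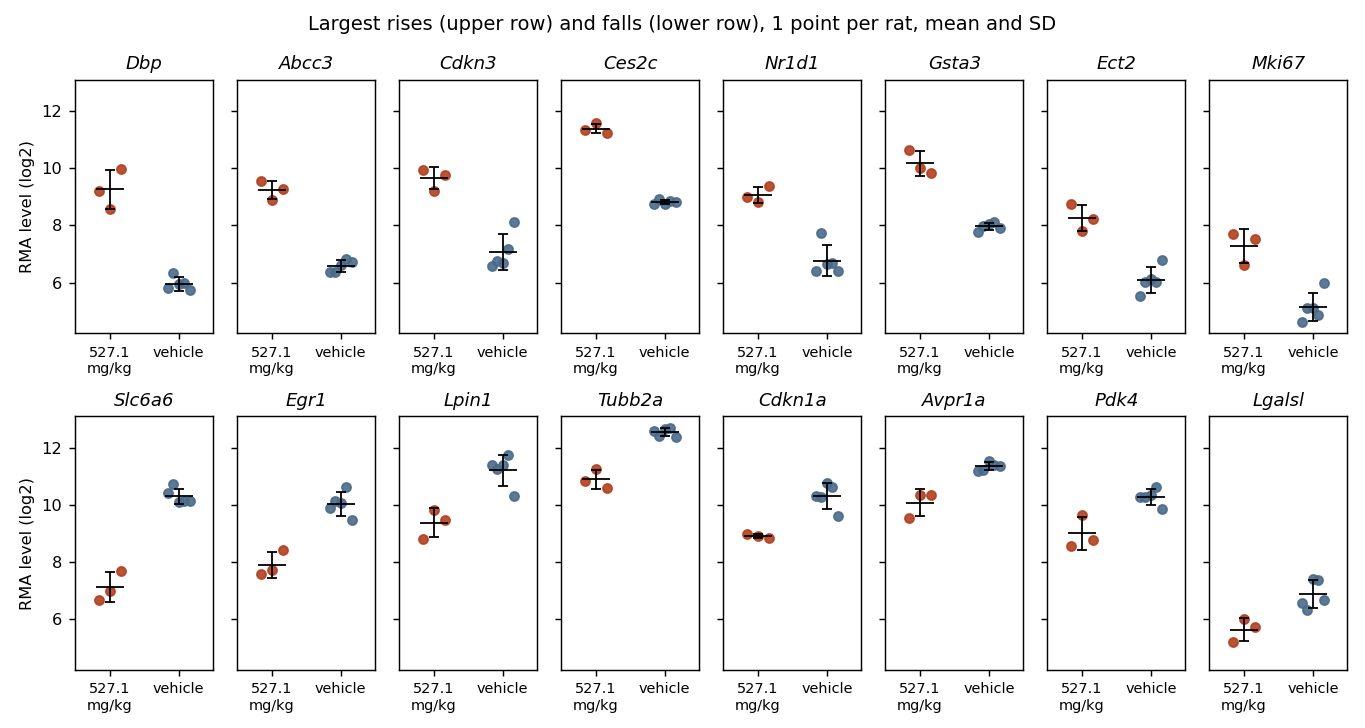
RMA level (log2) of the 8 genes with the largest rises (upper row) and the 8 with the largest falls (lower row), with 1 point per rat and the mean and SD as a bar. Left in each panel are the 3 rats at 527.1 mg/kg and right the 5 vehicle rats, and the groups do not overlap in any panel.

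The falls were led by a taurine carrier and an immediate early gene. Slc6a6, which carries taurine into cells, had levels of 6.67, 7.0 and 7.70 at 527.1 mg/kg and 10.41, 10.73, 10.09, 10.13 and 10.13 with vehicle. The highest treated rat stood far below the lowest vehicle rat, and the level was 9.03-fold lower (-3.18 ± 0.20, limma adjusted p = 3.28e-08). A second Slc6a6 probe set also fell (-2.31 ± 0.21, adjusted p = 4.51e-06). Egr1, a transcription factor induced within minutes by growth signals, had levels of 7.57, 7.74 and 8.43 at 527.1 mg/kg and 9.90, 10.15, 10.06, 10.61 and 9.47 with vehicle. The groups did not overlap, and Egr1 was 4.37-fold lower (-2.13 ± 0.37, adjusted p = 0.00476). Lpin1, a phosphatidate phosphatase of lipid synthesis, had levels of 8.82, 9.81 and 9.48 at 527.1 mg/kg and 11.39, 11.25, 11.40, 11.74 and 10.30 with vehicle. Vehicle replicate 5 was the low vehicle rat, and the fall (-1.84 ± 0.38, adjusted p = 0.0155) no longer passed when 527.1 mg/kg replicate 1 or replicate 3 was left out (highest adjusted p 0.116). A second Lpin1 probe set also fell (-1.73, adjusted p = 0.00948).

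Tubb2a, a beta-tubulin, had levels of 10.84, 11.25 and 10.58 at 527.1 mg/kg and 12.60, 12.40, 12.65, 12.69 and 12.39 with vehicle. The groups were more than a log2 unit apart at their nearest rats, and Tubb2a was 3.15-fold lower (-1.66 ± 0.17, limma adjusted p = 1.21e-05). Cdkn1a, which encodes the cell cycle inhibitor p21, had levels of 8.98, 8.91 and 8.84 at 527.1 mg/kg and 10.31, 10.28, 10.76, 10.61 and 9.61 with vehicle. The treated rats were close together below all vehicle rats, and the fall was 2.64-fold (-1.40 ± 0.24, adjusted p = 0.00371). A second Cdkn1a probe set fell less (-0.61 ± 0.13, adjusted p = 0.0236). Avpr1a, the vasopressin receptor of hepatocytes, had levels of 9.53, 10.34 and 10.35 at 527.1 mg/kg and 11.20, 11.23, 11.55, 11.38 and 11.36 with vehicle. Its fall was 2.41-fold with no overlap between the groups (-1.27 ± 0.20, adjusted p = 0.00187).

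Pdk4, a kinase that holds back glucose oxidation, had levels of 8.57, 9.64 and 8.79 at 527.1 mg/kg and 10.27, 10.26, 10.33, 10.63 and 9.85 with vehicle. The nearest rats were 527.1 mg/kg replicate 2 and vehicle replicate 5, and the fall was 2.41-fold (-1.27 ± 0.25, limma adjusted p = 0.0121). Leaving out 527.1 mg/kg replicate 1 or replicate 3 ended that call (highest adjusted p 0.102). A second Pdk4 probe set changed by -0.28 ± 0.13 and did not pass (adjusted p = 0.32). Lgalsl had levels of 5.20, 6.0 and 5.73 at 527.1 mg/kg and 6.56, 6.34, 7.42, 7.36 and 6.67 with vehicle. Its groups did not overlap, and both of its probe sets fell (-1.22 ± 0.24 and -1.05 ± 0.16). The call of the probe set with the larger fall was lost without 527.1 mg/kg replicate 1 (adjusted p = 0.102).

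Genes of mitosis and the G2 to M transition made up the list with the largest share of called members. Of 32 measured members, 24 rose, 0 fell and 8 did not pass, and the median change was 1.10, against -0.005 over all probe sets. The shares over all probe sets were 1.19% higher and 0.483% lower. Ect2, which organises the cleavage of dividing cells, had levels of 8.74, 7.82 and 8.22 at 527.1 mg/kg and 5.54, 6.03, 6.11, 6.02 and 6.80 with vehicle. The lowest treated rat stood about a log2 unit above the highest vehicle rat, and Ect2 rose 4.47-fold (2.16 ± 0.40, limma adjusted p = 0.00639). Mki67, which encodes the proliferation antigen Ki-67, had levels of 7.71, 6.60 and 7.53 at 527.1 mg/kg and 4.64, 5.12, 5.13, 4.87 and 5.97 with vehicle. Replicate 2 was the low treated rat and vehicle replicate 5 the high vehicle rat, yet they did not overlap, and Mki67 rose 4.38-fold (2.13 ± 0.35, adjusted p = 0.00286).

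Genes of mitotic entry rose as well. The B cyclin Ccnb2 averaged 8.81 ± 0.47 at 527.1 mg/kg (SD, n = 3) and 6.79 ± 0.41 with vehicle (SD, n = 5), a rise of 2.02 ± 0.30 (limma adjusted p = 0.00158). Its kinase partner Cdk1 rose by 1.84 ± 0.38 (adjusted p = 0.0145), Ccnb1 by 1.84 ± 0.36 (0.00952) and the S and G2 cyclin Ccna2 by 1.87 ± 0.46 (0.0409). Among spindle and cytokinesis genes, the midzone protein Prc1 rose by 1.66 ± 0.25, Racgap1 by 1.53 ± 0.27 and the kinesin Kif20a by 1.53 ± 0.32. The checkpoint kinase Bub1 rose by 1.62 ± 0.34, and the Aurora kinases Aurka and Aurkb by 1.06 ± 0.16 and 1.13 ± 0.23. Not past the threshold were the topoisomerase Top2a (1.09 ± 0.30, adjusted p = 0.0758), the kinase Plk1 (0.44 ± 0.14, adjusted p = 0.149) and the kinesin Kif23 (adjusted p = 0.766), among others.

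These calls leaned on single rats. Without 527.1 mg/kg replicate 1, which had the highest mean over the list, 11 of the members passed instead of 24. Ect2 and Ccnb1 then missed the threshold (limma adjusted p = 0.0609 and 0.0856), as did Racgap1 (0.0529). Cdk1, Bub1, Kif20a and Aurkb missed it without 527.1 mg/kg replicate 1 or replicate 3 (highest adjusted p 0.104, 0.0956, 0.111 and 0.0848 in that order), and Ccna2 without any of 7 rats (highest 0.162) or with a trend and robust variance (0.102). A second Racgap1 probe set changed by 0.46 and did not pass, while a second Ccnb1 probe set passed with all rats in (1.46, adjusted p = 0.0142). The mean of the list relative to the vehicle mean ran from 0.86 to 1.35 in the 527.1 mg/kg rats and from -0.14 to 0.32 in vehicle rats, with vehicle replicate 5 the highest of the vehicle rats.

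**Figure D2:**
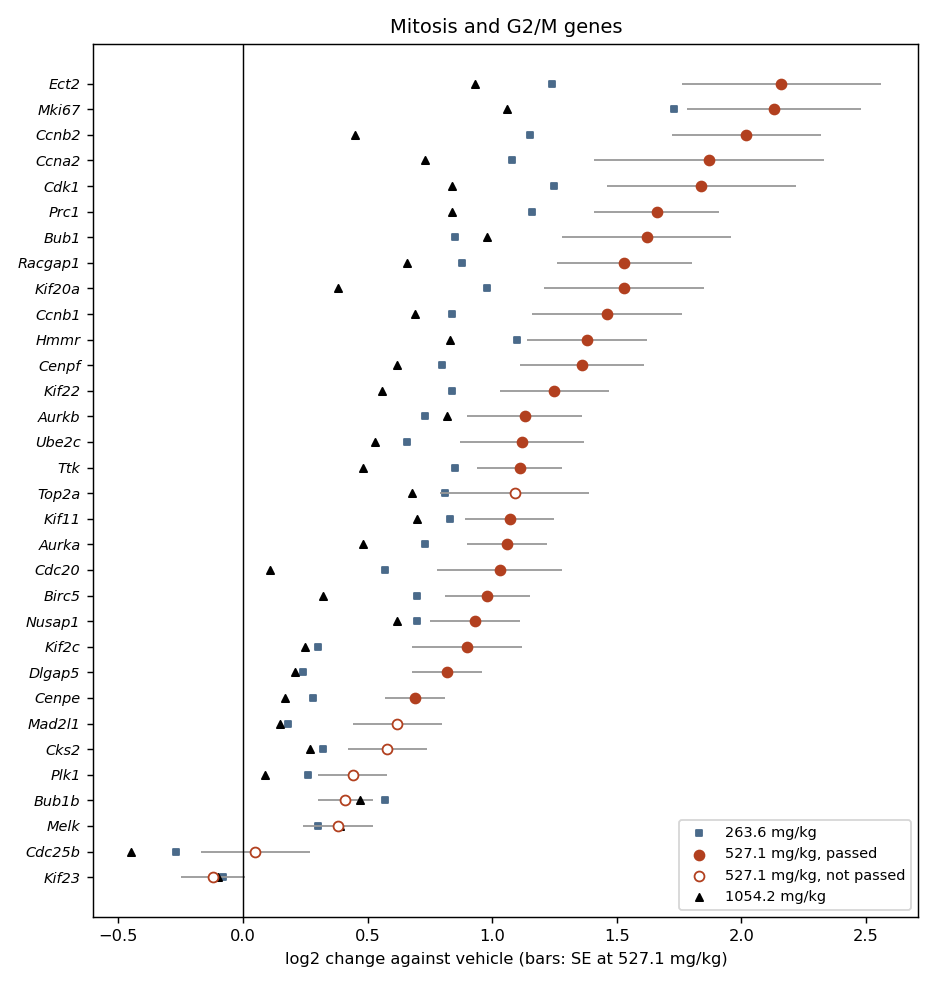
Log2 change against vehicle (horizontal axis) of the 32 measured mitosis and G2/M genes, with squares for 263.6, circles for 527.1 (filled where limma's adjusted p was under 0.05) and triangles for 1054.2 mg/kg; bars are SE at 527.1 mg/kg. The 24 filled circles lie between 0.69 and 2.16.

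The promoters of 3 of these genes are shown because the genes moved together and share short sequence motifs. They are the 250 bases before the gene's start, 5′ to 3′ on the gene's strand, from RefSeq on the rat build GRCr8. Ccnb2 is at chr8:79981659-79981908 (minus strand), Cdk1 at chr20:19265043-19265292 (plus strand) and Mki67 at chr1:199952594-199952843 (minus strand). Capitals mark the letters TTTGAA (known as CHR) and CCAAT on either strand.
Ccnb2: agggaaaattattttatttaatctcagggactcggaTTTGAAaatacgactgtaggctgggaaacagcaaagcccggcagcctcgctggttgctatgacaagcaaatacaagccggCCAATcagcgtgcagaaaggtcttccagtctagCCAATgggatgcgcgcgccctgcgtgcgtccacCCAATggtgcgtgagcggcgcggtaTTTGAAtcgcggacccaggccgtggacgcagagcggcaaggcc
Cdk1: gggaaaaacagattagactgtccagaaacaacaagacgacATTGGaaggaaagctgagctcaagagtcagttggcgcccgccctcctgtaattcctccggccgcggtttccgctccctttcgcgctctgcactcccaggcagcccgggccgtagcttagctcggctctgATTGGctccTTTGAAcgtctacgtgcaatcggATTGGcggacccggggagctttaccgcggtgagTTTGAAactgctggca
Mki67: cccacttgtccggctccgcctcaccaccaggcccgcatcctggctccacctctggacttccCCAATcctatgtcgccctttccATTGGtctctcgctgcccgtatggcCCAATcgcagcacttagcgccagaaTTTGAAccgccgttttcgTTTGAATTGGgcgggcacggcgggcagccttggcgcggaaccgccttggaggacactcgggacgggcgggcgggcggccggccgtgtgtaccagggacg
In windows of 300 bases, from 250 before to 50 after the start, 20 of the 24 genes that rose had a sequence. CHR was in 12 of the 20 (60.0%) and in 18.1% of 27457 RefSeq promoter windows of that length, CCAAT was in 17 (85%) against 37.7%, and both were in 12 (60.0%) against 7.25%. In Mki67 a CHR match and a CCAAT match shared a base. Both motifs were chosen after the values were seen, and a match is a description of letters, not a binding site. Members of the list that did not pass were not counted, so these shares do not separate genes that rose from other mitosis genes.

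Genes of DNA replication in S phase moved less. Of 33 measured members, 3 rose and 1 fell, against 1.19% higher and 0.483% lower over all probe sets, and the median change was 0.21. The nucleotide enzymes Tk1 and Rrm1 rose by 0.70 ± 0.13 and 0.69 ± 0.15 (limma adjusted p = 0.00534 and 0.0214; of 2 other Tk1 probe sets, 1 passed at 0.86 and 1, at 0.16, did not), and the clamp loader subunit Rfc4 by 0.61 ± 0.15 (0.0441), a call lost when array medians were centred (0.058). Mcm10, a replication initiation factor, fell (-0.56 ± 0.09, adjusted p = 0.00214), while its second probe set did not pass (-0.33 ± 0.15). The replication clamp Pcna changed by 0.17 ± 0.12 (adjusted p = 0.596). The count of 4 was 1 without 527.1 mg/kg replicate 1, and 2 without 527.1 mg/kg replicate 3, vehicle replicate 3 or vehicle replicate 4.

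The mitosis genes were set against the neighbouring doses. Against the same vehicle rats, 4 members rose at 263.6 mg/kg, 24 at 527.1 mg/kg and 2 at 1054.2 mg/kg, with medians of 0.77, 1.10 and 0.51. Over all probe sets 0.428% were called at 263.6 mg/kg and 3.3% at 1054.2 mg/kg. The list mean per rat averaged 0.71 ± 0.48, 1.13 ± 0.25 and 0.49 ± 0.54 at those doses (SD, n = 3 each). A 263.6 mg/kg rat (0.17) and a 1054.2 mg/kg rat (-0.12) lay within the range of the vehicle rats, and none at 527.1 mg/kg did. In the direct comparison of 1054.2 with 527.1 mg/kg no member passed, the lowest adjusted p being that of Ccnb2 (0.178), although 29 of 32 were lower at 1054.2 mg/kg and 20 had an unadjusted p under 0.05. In that of 527.1 with 263.6 mg/kg no member passed either (lowest adjusted p 0.643), and 6 had an unadjusted p under 0.05.

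**Figure D3:**
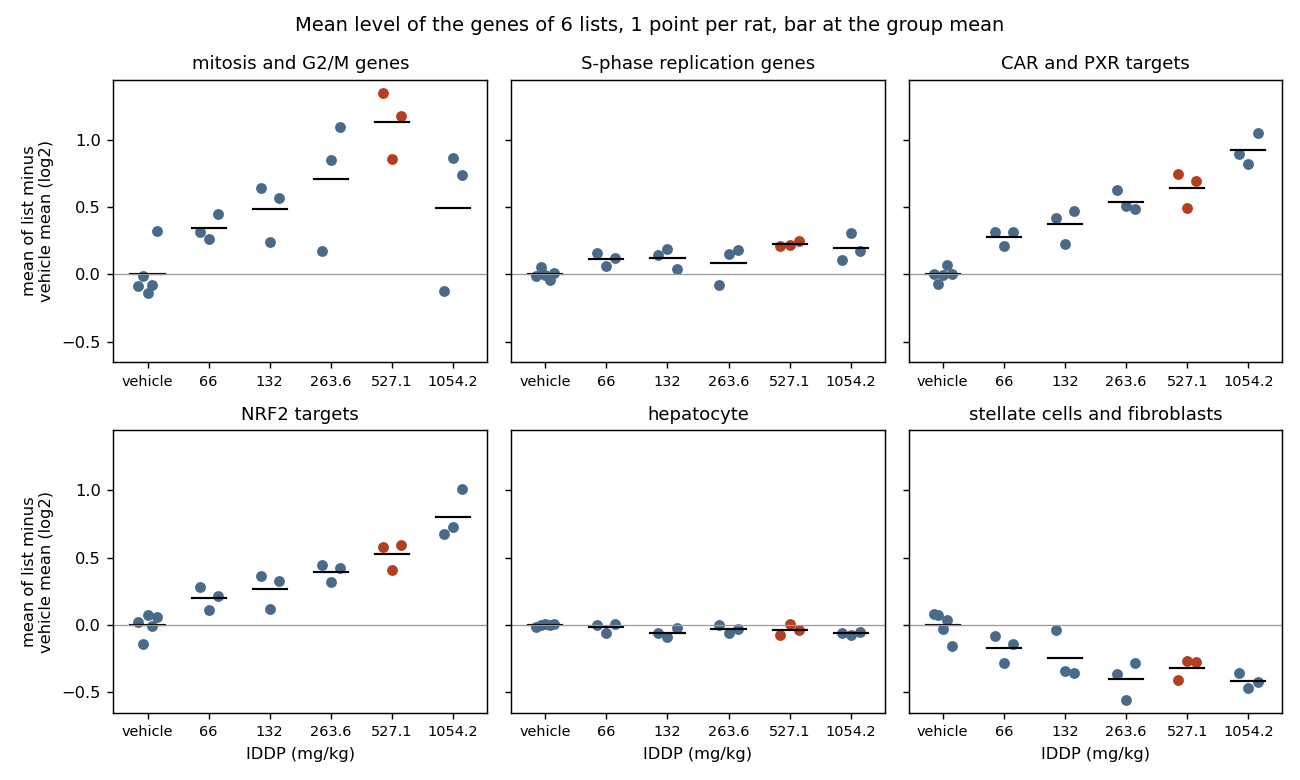
Mean log2 level of the measured genes of 6 lists relative to the vehicle mean (vertical axis) by IDDP dose in mg/kg (horizontal axis), with 1 point per rat and a bar at the group mean; the 527.1 mg/kg rats are red. For mitosis and G2/M genes the 3 rats at 527.1 mg/kg lie between 0.86 and 1.35, above all vehicle rats.

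Drug-metabolising genes formed the next group. Of 26 measured CAR and PXR targets 11 rose and 1 fell, against 1.19% higher and 0.483% lower over all probe sets. Their median change was 0.36, and the member that fell was Cdkn1a. Besides Abcc3, Ces2c and Gsta3 they included the steroid and drug oxidase Cyp3a23-3a1 (1.29 ± 0.11, limma adjusted p = 1.36e-06), the glucuronosyltransferase Ugt2b1 (1.13 ± 0.10, adjusted p = 3.73e-06) and the aldehyde dehydrogenase Aldh1a1 (1.04 ± 0.10, adjusted p = 8.36e-06). The aldo-keto reductase Akr7a3 rose by 1.82 ± 0.23 (adjusted p = 0.000333). The drug efflux pump Abcb1a rose by 0.87 ± 0.13 and Cyp3a18 by 0.93 ± 0.14. Of the 13 measured Cyp2b, Cyp2c and Cyp3a genes only these 2 Cyp3a genes passed. The Cyp2b genes among the 13 were Cyp2b3 (-0.03 ± 0.07) and Cyp2b12 (-0.23 ± 0.10). Cyp2b1 and Cyp2b2 were not among them, so their response is not known from this list. Among 9 AhR targets Nqo1 was the one that rose, and Cyp1a1 and Cyp1a2 changed by 0.40 ± 0.27 and -0.42 ± 0.11 (adjusted p = 0.573 and 0.0518). The AhR count became 2, 1 higher and 1 lower, with quantile normalization applied again or all probe sets of a gene averaged. It was also 2 without vehicle replicate 2 and without the 2 arrays of highest 3′ minus 5′ difference.

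Of 36 NRF2 targets 10 rose and 0 fell, against 1.19% higher and 0.483% lower over all probe sets, and the median was 0.34. Nqo1, a quinone reductase, averaged 9.38 ± 0.25 at 527.1 mg/kg (SD, n = 3) and 8.24 ± 0.20 with vehicle (SD, n = 5), a rise of 1.14 ± 0.18 (limma adjusted p = 0.00256). Srxn1, which repairs peroxiredoxins, rose by 0.61 ± 0.13 (adjusted p = 0.0166) in the probe set taken for the list, but its other probe sets changed by 0.16 ± 0.09 and 0.05 ± 0.09 and did not pass (0.476 and 0.884). Also higher were the aldehyde oxidase Aox1, by 0.74 ± 0.12 (adjusted p = 0.00199), and Me1, a source of NADPH, by 0.86 ± 0.20 (0.0278). A second Me1 probe set changed by 0.59 ± 0.18 (0.101). Hmox1, the stress-induced haem oxygenase, changed by 0.38 ± 0.23 (adjusted p = 0.525). The count was 6 without 527.1 mg/kg replicate 1 and 6 without replicate 3, and Srxn1 was among the calls lost each time (highest adjusted p 0.113). Me1 also needed vehicle replicates 2, 3 and 4 (highest 0.132). Several of these genes, Abcc3, Gsta3 and Akr7a3 among them, stand in both lists. Of 21 glutathione transferases 5 rose, including Gstt3 (0.97 ± 0.21), Gsta4 (0.73 ± 0.11) and Mgst2 (0.71 ± 0.11). The call of Gstt3 was lost without 527.1 mg/kg replicate 1 (limma adjusted p = 0.131).

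The promoter of Gsta3 (chr9:31154739-31154988, plus strand, RefSeq on GRCr8) is shown because Gsta3 was the transferase that rose most. Capitals mark the core of the antioxidant response element, TGACNNNGC, searched on both strands.
Gsta3: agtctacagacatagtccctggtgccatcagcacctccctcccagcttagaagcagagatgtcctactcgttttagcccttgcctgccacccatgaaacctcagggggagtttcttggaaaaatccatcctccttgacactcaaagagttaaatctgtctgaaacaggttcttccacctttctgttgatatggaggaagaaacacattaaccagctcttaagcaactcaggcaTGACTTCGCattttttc
The core was in the 300-base windows of 2 of the 9 NRF2 targets that rose and had a window, Gsta3 and Me1, and in 12.2% of all windows.

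Clock genes changed in both directions. Of 21 measured members, 6 rose and 2 fell, against 1.19% higher and 0.483% lower over all probe sets. Dbp and Nr1d1 rose as given above, and so did the second REV-ERB gene Nr1d2 (1.36 ± 0.18, limma adjusted p = 0.000355), the repressor genes Per3 (1.92 ± 0.22, adjusted p = 6.63e-05) and Cry2 (0.94 ± 0.12, adjusted p = 0.000265), and Tef, a relative of Dbp (0.62 ± 0.12, adjusted p = 0.0121). The activator Bmal1 fell (-1.09 ± 0.19, adjusted p = 0.00472), as did Nfil3, which represses the targets of DBP (-0.97 ± 0.20, adjusted p = 0.0156). Bmal1 levels were 7.15, 7.63 and 7.27 at 527.1 mg/kg and 8.70, 7.90, 8.58, 8.64 and 8.4 with vehicle. All treated rats lay below all vehicle rats, of which vehicle replicate 2 was the lowest. The activator Npas2 changed by -1.0 ± 0.28 and did not pass (adjusted p = 0.0771). Leaving out 527.1 mg/kg replicate 3 ended the calls of Nfil3 and Tef, and replicate 1 that of Tef (highest adjusted p 0.108 and 0.0932 in that order). A second probe set of Per3 did not pass (-0.01 ± 0.12, adjusted p = 0.989), nor did others of Nr1d2 (-0.06 ± 0.10), Cry2 (0.06) and Tef, and the 2 of Per2 differed (1.18 ± 0.32 and 0.09 ± 0.10, adjusted p = 0.0641 and 0.8). The hour of day at which the rats were killed is not in the labels, and its part in these values was not tested.

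The promoter of Bmal1 (chr1:176766078-176766327, plus strand, RefSeq on GRCr8) is shown because REV-ERB proteins are known to act on this gene through elements shared with ROR factors. Capitals mark the ROR element core TAGGTCA.
Bmal1: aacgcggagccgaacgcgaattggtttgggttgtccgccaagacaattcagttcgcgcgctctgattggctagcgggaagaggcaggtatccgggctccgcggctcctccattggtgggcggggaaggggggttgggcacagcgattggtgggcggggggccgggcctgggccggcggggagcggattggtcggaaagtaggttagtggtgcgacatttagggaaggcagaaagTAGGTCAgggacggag
The core was in the 300-base windows of 1 of the 2 clock genes that fell, in 0 of the 6 that rose and in 2.6% of all windows, on either strand. The E-box CACGTG was in 1 of the 6 that rose (Tef) and in 6.65% of all windows, and the D-box TTATGTAA in 0 of the 6 and in 0.881%.

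Lipid genes changed in smaller numbers. Of 44 PPAR alpha targets 4 fell and 0 rose, against 0.483% lower and 1.19% higher over all probe sets, and the median was -0.12. The 4 were Pdk4, the lipase inhibitor Angptl4 (-1.21 ± 0.24, limma adjusted p = 0.0122), the lipid droplet coat gene Plin2 (-0.93 ± 0.16, adjusted p = 0.0041) and the carnitine palmitoyltransferase gene Cpt1b (-0.60 ± 0.14, adjusted p = 0.0333). Cpt1b averaged 6.02 at 527.1 mg/kg and 6.62 with vehicle, and its call was lost with array medians centred (adjusted p = 0.0562). A second Plin2 probe set changed by -0.71 ± 0.19 (adjusted p = 0.0564). The count was 1 without 527.1 mg/kg replicate 1, when Pdk4, Angptl4 and Cpt1b were lost, and 2 without replicate 2. Of 28 fatty acid synthesis genes, Me1 and Lpin2 rose and Lpin1 fell (a second Lpin2 probe set changed by -0.12 ± 0.13), a count of 0 without 527.1 mg/kg replicates 1 or 3 and of 1 without vehicle replicates 2 or 3. The desaturase Scd varied widely between rats, at 9.51 ± 1.29 at 527.1 mg/kg (SD, n = 3) and 11.28 ± 0.75 with vehicle (SD, n = 5), and did not pass (-1.78 ± 0.48, adjusted p = 0.0682). Of 21 ceramide and sphingolipid enzymes 3 rose, led by the ceramide synthase Cers6 (1.31 ± 0.19, adjusted p = 0.00134). None of 20 sterol synthesis genes passed (median -0.22), and none of 22 apolipoprotein genes, which is near the 1.68% of all probe sets.

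Other large changes were spread over liver metabolism. Hsd17b2, which oxidises oestradiol and testosterone, averaged 12.47 ± 0.24 at 527.1 mg/kg (SD, n = 3) and 10.49 ± 0.21 with vehicle (SD, n = 5), a rise of 1.98 ± 0.19 (limma adjusted p = 8.36e-06). Synrg fell (-1.12 ± 0.16, adjusted p = 0.000951), as did the lactate carrier Slc16a1 (-0.85 ± 0.12, adjusted p = 0.0012) and the bile acid ligase Slc27a5 (-0.79 ± 0.13, adjusted p = 0.00371). Second probe sets did not pass for Slc16a1 (0.03 ± 0.10, adjusted p = 0.95) or Synrg (-0.50 ± 0.14, adjusted p = 0.0886). Oat, an ornithine transaminase of pericentral hepatocytes, fell (-1.20 ± 0.28, adjusted p = 0.0288), but not without 527.1 mg/kg replicates 1 or 3 or vehicle replicates 1, 3 or 4 (highest adjusted p 0.176), nor with a trend and robust variance (0.058). The retinoic acid hydroxylase Cyp26b1 fell (-1.17 ± 0.23, adjusted p = 0.00948), a call lost without 527.1 mg/kg replicate 2 (0.0705), and its second probe set did not pass (-0.22 ± 0.12, adjusted p = 0.46). The lipid-binding Fabp5 (-1.15 ± 0.22) and the caveolin Cav2 (-1.09 ± 0.22) fell, and both calls were lost without 527.1 mg/kg replicate 1 (adjusted p = 0.0892 and 0.095). Of the 4 Cav2 probe sets 2 passed. Pck2, a mitochondrial enzyme of gluconeogenesis, rose by 0.68 ± 0.11 (adjusted p = 0.00187), with a second probe set at 0.40 ± 0.11 (0.0638).

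Among stress genes, the p53 list had 3 members that rose and 1 that fell, of 16. The shares over all probe sets were 1.19% higher and 0.483% lower. The mTORC1 inhibitor Ddit4 rose by 1.68 ± 0.31 (limma adjusted p = 0.00697), the cell death gene Bbc3 by 0.75 ± 0.14 (0.00658) and Mdm2, the p53 ubiquitin ligase, by 0.46 ± 0.10 (0.0269), while Cdkn1a fell. Of 27 genes of ATF4 and serine synthesis 3 rose: Ddit4, the glutathione-degrading enzyme Chac1 (1.05 ± 0.22, adjusted p = 0.0158) and Atf4 (0.51 ± 0.13, adjusted p = 0.0449), a count of 1 without 527.1 mg/kg replicates 2 or 3. Metallothionein Mt2A rose by 1.44 ± 0.30 (adjusted p = 0.017), a call lost without any 1 of the 3 treated rats (highest adjusted p 0.0827) or with a trend and robust variance (0.052). The Mdm2 call needed 527.1 mg/kg replicates 1 and 3 and vehicle replicates 2 and 3 (highest 0.144), and it was lost when quantile normalization was applied again (0.0936). The other Mdm2 probe sets changed by 0.46 ± 0.12 and 0.06 ± 0.11 and did not pass (0.0689 and 0.883). Of 14 tubulin and actin genes 3 fell, Tubb2a, Tuba4a (-0.86 ± 0.17) and Actg1 (-0.77 ± 0.16, with a second probe set at -0.20 ± 0.15 that did not pass), and 1 rose, the tubulin-binding Stmn1 (1.39 ± 0.25). For the beta-tubulin Tubb5 the probe set taken for the list did not pass (0.29 ± 0.16), but its other probe set was called higher (0.50). Tuba4a missed the threshold without 527.1 mg/kg replicate 3 (adjusted p = 0.0754) and Actg1 without replicate 1 (adjusted p = 0.116). Of 25 endoplasmic reticulum folding genes, 36 proteasome subunits, 26 ribosomal proteins, 40 respiratory chain subunits and 34 acute phase genes, 0 passed in each list. With 1.68% of all probe sets called, a count of 0 in lists of this size says little about these genes. The acute phase count became 2, both lower, when quantile normalization was applied again or all probe sets of a gene were averaged. It was also 2 without the 2 arrays of highest 3′ minus 5′ difference, and 1 without vehicle replicate 5.

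**Figure D4:**
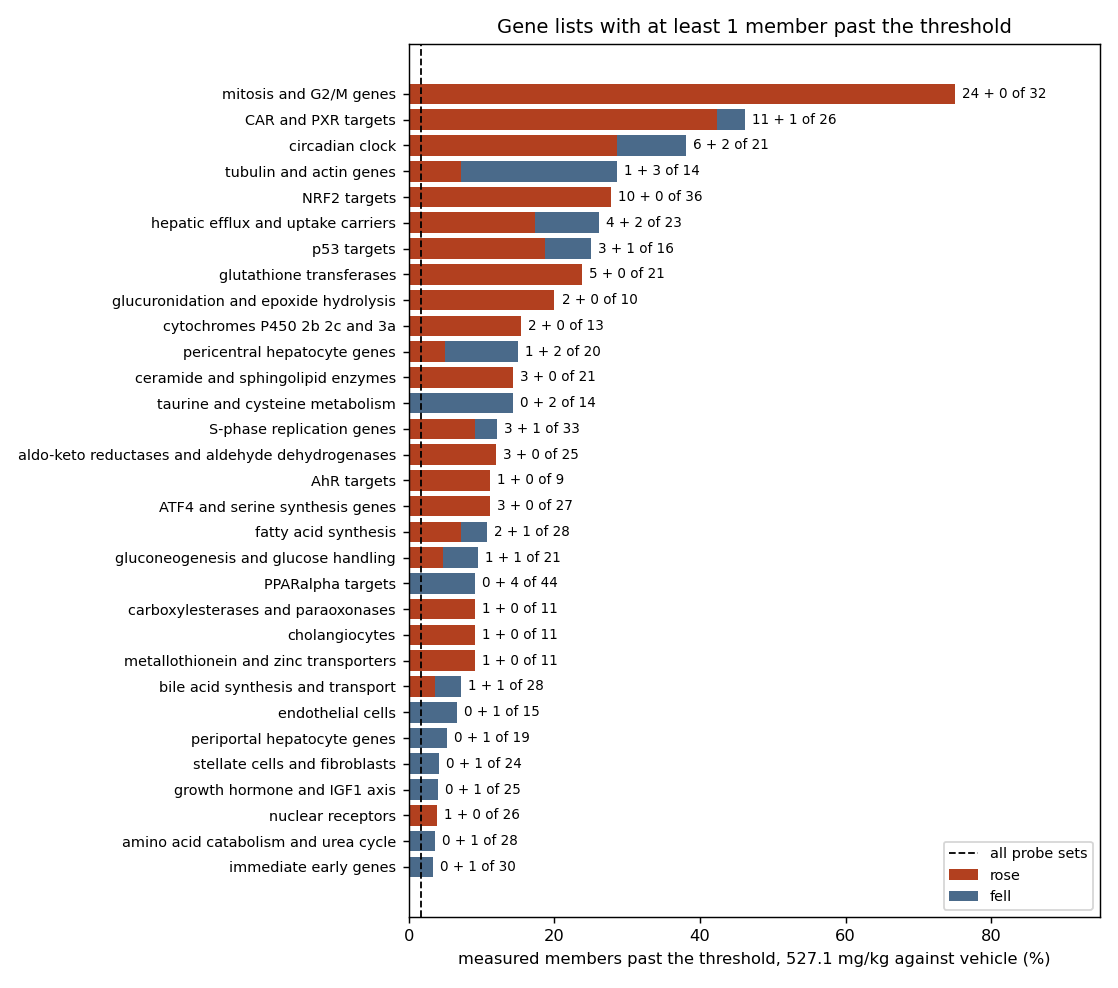
Share of measured members past the threshold at 527.1 mg/kg against vehicle (horizontal axis, percent) in each list with at least 1 such member, split into genes that rose and fell, with the counts at the bar ends. The dashed line is the 1.68% of all probe sets; the mitosis and G2/M list has the longest bar, with 24 of 32.

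Markers of other liver cells moved a little. Of 16 Kupffer cell and macrophage markers 0 passed, with a median of -0.31, and their mean per rat ran from -0.46 to -0.17 at 527.1 mg/kg and from -0.15 to 0.18 with vehicle. Their count became 1, lower, without the 2 arrays of highest 3′ minus 5′ difference. Of 24 stellate cell and fibroblast markers 1 fell, the growth factor receptor gene Pdgfra (-0.50 ± 0.11, limma adjusted p = 0.0237), with means from -0.41 to -0.27 at 527.1 mg/kg and from -0.15 to 0.08 with vehicle. Of 15 endothelial markers 1 fell, Gpr182 (-0.50 ± 0.12, adjusted p = 0.0286; its second probe set, at -0.28 ± 0.21, did not pass), with means from -0.33 to -0.20 at 527.1 mg/kg and from -0.15 to 0.14 with vehicle. Of 11 bile duct markers 1 rose, Epcam (0.55 ± 0.12, adjusted p = 0.0237). All 3 of these calls were lost without 527.1 mg/kg replicate 1 or replicate 3, and without some vehicle rats (vehicle replicates 1 and 4 for Pdgfra, 3 for Epcam, several for Gpr182). None of the neutrophil, T and NK cell, B cell, erythroid or pancreas markers passed. With 1.68% of all probe sets called, counts of 0 or 1 in lists this short say little about these cell types. The pancreas count became 1, lower, without vehicle replicate 3, with quantile normalization applied again or with all probe sets of a gene averaged. The part of these shifts in the other results was not tested, and in whole liver RNA fewer cells of a type and less RNA per cell cannot be told apart.

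The 527.1 mg/kg rats were also compared directly with the doses on either side. Between 1054.2 and 527.1 mg/kg 4 probe sets (0.0129%) passed limma's test, against 1888 at an unadjusted p under 0.05 and 1552.1 by the level of the test alone. This count was 656 with array weights, 2 with dim probe sets left out, 1 with the replicate number as a block and 0 with only the 2 groups compared, a setting that ends the calls named here. It was 1 without 527.1 mg/kg replicate 1, and 8, 7 and 2 without 1054.2 mg/kg replicates 1, 2 and 3 in turn. The aldo-keto reductase Akr1b7 was higher at 1054.2 mg/kg, at 7.46, 6.23 and 7.12 in the 1054.2 mg/kg rats and 5.29, 4.60 and 4.64 in the 527.1 mg/kg rats (adjusted p = 0.00586). A dim Srxn1 probe set, one of the Srxn1 probe sets that did not pass at 527.1 mg/kg against vehicle, was higher by 0.65 at 1054.2 mg/kg (adjusted p = 0.0196), and so was LOC102555217, which was named after its values were seen. The dehydrogenase gene Dhrs7l1 was lower, at 10.17, 11.03 and 9.99 in the 1054.2 mg/kg rats and 12.52, 12.45 and 12.98 in the 527.1 mg/kg rats (adjusted p = 0.0196). Between 527.1 and 263.6 mg/kg 0 probe sets (0.0%) passed limma's test, with 1809 at an unadjusted p under 0.05, and between 0 and 2 passed under the alternatives tried.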

How the data were processed

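The authors deposited log2 values, 1 per probe set and array; per the submitters' processing notes they come from RMA, whose version no source used here gives. The 57 control probe sets were left out and no filter on brightness was set. limma 3.58.1 under R 4.3.3 fitted 1 mean per dose group to all 20 arrays (14 residual and 5.75 prior degrees of freedom), with two-sided moderated tests and Benjamini-Hochberg adjustment over 31042 probe sets at a threshold of 0.05. p-values measure spread between rats, and the number of arrays limits precision. Symbols came from the array's annotation: 20826 probe sets had 1 symbol, 436 had several and 9780 are unnamed here. The 46 gene lists (882 measured genes, each read from its brightest probe set) and the groups were chosen with earlier results of these data known. Genes named are the 15 largest rises and falls with 1 symbol and all treated rats on 1 side of the vehicle mean, up to 2 changes of the contrasts with neighbouring doses, and the leading members of each list. A few more members of the mitosis, clock and NRF2 lists were named after their values were seen. limma was tested on simulated data. Alternatives were other normalizations and filters, array weights, fewer arrays, a replicate block and leaving out each rat. Leaving out the 2 arrays of highest 3′ minus 5′ difference was chosen after seeing the data.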

Additional observations from a re-analysis of the deposited data

Results flagged for a closer look

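The vehicle rats were checked for a rat far from the other 4 in 91 named probe sets, and 8 had one (gap over range above Dixon's critical value of 0.71); chance flags about 1 in 20 groups. Vehicle replicate 2 was high for Nr1d1 (7.72, against 6.39 to 6.67 in the others), Hsd17b2 (10.86, against 10.34 to 10.45) and Nr1d2 (9.18, against 8.14 to 8.4). Vehicle replicate 5 was high for Ccnb1 (6.39, against 5.12 to 5.45) and low for Angptl4 (10.87, against 11.48 to 11.62). Vehicle replicate 1 was high for Cyp26b1 (8.04, against 7.11 to 7.25), replicate 4 was high for Gsta4 (11.53, against 11.39 to 11.43) and replicate 3 was low for Epcam (8.96, against 9.26 to 9.32).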

How the results depend on the processing

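The count of 520 became 1188 with array weights, 826 with only the 8 arrays compared, and 283 with the replicate number as a block, and it ran from 212 to 509 when 1 rat was left out. The other settings gave 473 to 762 calls, the highest without the 2 arrays of highest 3′ minus 5′ difference (3.25 in the second 132 mg/kg rat and 2.47 in the second 263.6 mg/kg rat). Deviations of the 527.1 mg/kg rats and of the same-numbered vehicle rats correlated at 0.00428, -0.147 and 0.0945. These values cover only those 2 groups, so whether the replicate numbers link rats across the other doses was not tested. The 4 calls between 1054.2 and 527.1 mg/kg became 656 with array weights, 2 without dim probe sets, 0 with only the 2 groups compared and 1 with the replicate block, and ran from 1 to 8 when 1 rat was left out. The 0 calls between 527.1 and 263.6 mg/kg became 2 with 1 probe set per gene, 1 with only the 2 groups compared and 0 with the block, and ran from 0 to 2 when 1 rat was left out. The causes were not tested. The changes past the threshold were named for their size, the largest with all treated rats on 1 side of the vehicle mean. A turned sign was thus unlikely for them from the start, and its absence is no check of the calls. None of the 73 named changes past the threshold turned its sign among the alternatives run. At 527.1 mg/kg against vehicle, 3 that had not passed did: with 1 rat left out Akr1b7 ran from -0.08 to 0.26 (negative without 527.1 mg/kg replicate 1), Dhrs7l1 from -0.04 to 0.23 and the dim Srxn1 probe set from -0.05 to 0.14 (both negative without replicate 3). Under the block 20 named calls were lost, and 31 without 527.1 mg/kg replicate 1.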

Other observations

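Genes outside the lists were looked up after their values were seen, so their counts are descriptions. In a group of 22 measured genes, gathered around the kinetochore, spindle and chromosomes, 21 rose at 527.1 mg/kg and 0 fell, with a median log2 change of 1.18. The group also holds genes of other kinds, such as Pclaf, Pbk and Lmnb1. It counts Cdkn3, given above, a second time, and the rise of Cdkn3 (2.58) was its largest. Over all tested probe sets 1.19% were higher and 0.483% lower. The kinetochore genes Spc24 and Spc25 both rose by 1.53 (SE 0.26 and 0.27), Cdca3 by 1.82 ± 0.28 and the securin gene Pttg1 by 1.30 ± 0.21 (limma adjusted p = 0.00235). The histone variant gene Cenpa changed by 0.17 ± 0.08 (adjusted p = 0.406). Of 13 measured genes of hepatocyte ploidy and G1 control, 2 rose and 0 fell, with a median of 0.12. Foxm1, a transcription factor of the G2 to M program, rose by 0.52 ± 0.12 (adjusted p = 0.0328). That call was lost without 527.1 mg/kg replicates 1 or 2 or vehicle replicates 1 or 4 (highest 0.201), and a second probe set changed by 0.09. Cdkn2c rose by 0.51 ± 0.11 (0.0231), with a second probe set at -0.05. Not past the threshold were Mybl2 (-0.05 ± 0.13, adjusted p = 0.931), Lin9 (0.46 ± 0.15, 0.139) and the G1 cyclin gene Ccnd1 (-0.45 ± 0.31, 0.594), among others.

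Of 25 measured interferon-stimulated genes, also looked up after their values were seen, 6 rose and 0 fell, with a median of 0.49. The share of all tested probe sets that were higher was 1.19%. Usp18, which damps interferon signalling, rose by 1.14 ± 0.23 (limma adjusted p = 0.0127), the RNA sensor Oas1a by 1.09 ± 0.23 (0.0186), Isg15 by 0.82 ± 0.20 (0.044) and Irf7 by 0.66 ± 0.16 (0.0332). Each of these 4 calls was lost without 527.1 mg/kg replicate 2 or replicate 3, and those of Oas1a, Isg15 and Irf7 also without vehicle replicate 3 (highest adjusted p 0.208). At 1054.2 mg/kg, against the same vehicle rats, the changes were 0.44 for Usp18, 0.16 for Oas1a, 0.18 for Isg15 and 0.00 for Irf7. None of these 4 differed between 1054.2 and 527.1 mg/kg in limma (adjusted p = 0.688, 0.512, 0.671 and 0.417 in that order). Stat2 and Trim34 also rose at 527.1 mg/kg (0.52 and 0.78) and changed by 0.39 and 0.32 at 1054.2 mg/kg. Some members changed more at 1054.2 than at 527.1 mg/kg, among them Ifit2 (0.69 against 0.48) and Bst2 (0.38 against 0.31), which passed at neither dose. Ifit1 and Ifit3 changed by -0.01 ± 0.14 and 0.05 ± 0.16 at 527.1 mg/kg.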
